A study of Mus musculus with 24 samples.

Results

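The comparison described here sets cecum labelled Cdx2-/-, in which the gene of the homeobox factor Cdx2 was targeted, against wild-type cecum, using 9 of the 24 RNA-seq samples of a mouse gut series. The 3 wild-type (WT) samples came from untreated mice of genotype WT. The 6 Cdx2-/- samples carried floxed Cdx2 alleles and an inducible recombinase (genotype Cdx2f/f::AhCreERT) and were given tamoxifen and β-naphthoflavone. The recombinase is driven by the Cyp1a1 (Ah) promoter, so it acts in cells in which the inducer turns that promoter on, and the tissue can hold recombined and unrecombined cells. The 6 samples fall into 2 sets of 3 by the library codes in the labels, called set 1 (replicates 1 to 3) and set 2 (replicates 4 to 6). Members were chosen as genes that differed from WT in set 1 and in set 2 and in the same direction, over all 20502 genes with enough reads to be tested. Below, values given as mean ± SD are over 3 WT and 6 Cdx2-/- samples, the log2 fold change ± SE is of the mean of both sets against WT, and the adjusted p beside it is the larger of the values of the 2 sets. Both sets were compared with the same 3 WT samples, so the 2 calls are not independent. Untreated mice with the floxed alleles were not analysed here, and drug treatment and the targeting of Cdx2 cannot be told apart. The labels give no age and do not say how long after induction the tissue was taken, or whether each replicate is a separate mouse, and the p-values reflect the variation among these samples alone.

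CDX2 and its relative CDX1 are homeobox transcription factors that define intestinal identity. In the adult intestine CDX2 binds enhancers of genes for digestion, absorption and mucosal defence, often near HNF4A, and its loss from embryonic or adult gut epithelium is known to let stomach-type programmes appear. The cecum is a blind pouch between the small and large intestine, with a colon-type epithelium of absorptive cells that take up water, salt and short-chain fatty acids and of mucus-producing goblet cells. Few Paneth cells are found there in normal mice.

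The 4 promoter windows here belong to genes named in this comparison, 2 lower and 2 higher in Cdx2-/- cecum. They were chosen because they hold the motif marked in them, so finding that motif there is not a result. Windows of Oas3, Sult1d1 and Ivl, chosen the same way, are not printed. Each runs from 250 bases before to 50 bases after the RefSeq gene start in GRCm38.p6, 5′ to 3′ on the gene's strand, with matches on either strand in capitals. Capitals mark TTTATG, the core of the CDX2 motif, in the first 2 and TGANTCA, the AP-1 motif, in the last 2. Mep1a, a brush border protease, lies at chr17:43502724-43503023 (minus strand), and Hoxa7, a homeobox gene, at chr6:52218524-52218823 (minus strand). Mmp10, a matrix protease, lies at chr9:7502092-7502391 (plus strand), and Gkn1, a stomach mucous cell product, at chr6:87350866-87351165 (minus strand).
Mep1a: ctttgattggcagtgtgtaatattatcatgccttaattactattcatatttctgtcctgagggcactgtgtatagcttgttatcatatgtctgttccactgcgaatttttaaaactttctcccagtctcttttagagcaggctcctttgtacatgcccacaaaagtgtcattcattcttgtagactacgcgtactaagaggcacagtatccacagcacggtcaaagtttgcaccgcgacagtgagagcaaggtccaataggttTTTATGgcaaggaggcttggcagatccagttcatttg
Hoxa7: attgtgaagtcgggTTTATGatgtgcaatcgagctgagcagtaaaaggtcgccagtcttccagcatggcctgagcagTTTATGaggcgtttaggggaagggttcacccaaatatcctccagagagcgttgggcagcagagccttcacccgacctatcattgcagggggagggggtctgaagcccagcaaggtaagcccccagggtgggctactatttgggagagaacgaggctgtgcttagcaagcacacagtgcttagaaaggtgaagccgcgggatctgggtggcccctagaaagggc
Mmp10: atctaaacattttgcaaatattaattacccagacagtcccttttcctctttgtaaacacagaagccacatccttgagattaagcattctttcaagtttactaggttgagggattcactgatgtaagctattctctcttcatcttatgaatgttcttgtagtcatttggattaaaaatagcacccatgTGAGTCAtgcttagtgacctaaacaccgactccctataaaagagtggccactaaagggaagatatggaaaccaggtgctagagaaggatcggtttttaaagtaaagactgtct
Gkn1: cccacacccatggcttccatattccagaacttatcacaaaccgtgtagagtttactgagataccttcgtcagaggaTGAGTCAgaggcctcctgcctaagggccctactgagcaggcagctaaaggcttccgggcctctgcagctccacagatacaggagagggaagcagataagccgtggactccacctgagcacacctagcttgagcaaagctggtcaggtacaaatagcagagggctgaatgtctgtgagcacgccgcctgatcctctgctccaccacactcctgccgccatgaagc
The Hoxa7 window held 2 matches and the other windows held 1 each. Among 11039 tested genes with a single RefSeq window, TTTATG stood on either strand in 7.48% of all windows, in 7.19% of those of genes lower in both sets and in 7.48% of those of genes higher in both. TGANTCA stood in 5.6% of all windows, 5.37% of those of lower genes and 6.46% of those of higher genes. The E2F-type motif TTCCCGC, found before many S-phase genes, stood in 7.68% of all windows, 7.67% of those of lower and 9.23% of those of higher genes. HNF4-type sites (CAAAGTC) stood in 4.07%, 4.22% and 4.52%, in the same order. These shares are a description of short windows and do not cover enhancers.

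Gene reads per sample ranged from 41967173 to 87975179 in the 9 samples. The intestinal epithelial genes Cdh17 and Vil1 were detected in all 9, at 1434 to 2220.1 and 1288 to 2216 CPM, read counts scaled to library size, in WT and 128 to 462 and 323 to 664 CPM in Cdx2-/-. By Xist and the Y-linked gene Ddx3y, set 1 came from female mice (Xist 666 to 816 CPM) and the WT samples and set 2 from male mice (Ddx3y 50.2 to 73.8 CPM), so only set 2 matches the WT samples in sex, and every member had to be called in it. Replicates 2 and 3 of set 1 were closer to each other (chi-square per degree of freedom 7.03) than any other same-group pair of the 9 samples (75.2 to 344), and counting them as 1 sample left 3490 genes higher and 3185 lower. Stomach-type RNA was measured in WT replicates 1 and 2, where Gkn2 stood at 86.7 and 247 CPM against 1.04 CPM in WT replicate 3, and the acid-pump gene Atp4b stood at 11.8 CPM in WT replicate 2. Its part in the results was not tested.

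Genes lower in Cdx2-/- cecum were abundant in WT cecum, and genes higher in Cdx2-/- cecum held few of the WT reads. With edgeR's quasi-likelihood test at an adjusted p of 0.05, 7411 of the 20502 genes tested (36.1%) were called in each set in the same direction. The higher genes numbered 3819 (18.6%) and the lower ones 3592 (17.5%), and these are the shares to hold against every list below. The 6 Cdx2-/- and 3 WT samples did not overlap in 8070 of the 20502 genes (39.4%). Genes named below from lists, or for the largest gains or losses in CPM, were taken only from those. A lack of overlap stated for such a gene was therefore fixed by the choice and adds no support. Testing the mean of both sets instead called 10881 genes (53.1%), with 5514 higher (26.9%) and 5367 lower (26.2%), and 52 genes (0.254%) were called in opposite directions in the 2 sets. CPM were scaled by TMM, a method that lines up the bulk of genes between samples. With samples scaled by total gene reads alone, the median of all genes moved from 0.04 to 0.46 on the log2 scale and the split from 51.5% to 75.5% higher (6249 higher and 2025 lower). Among the 3819 higher genes, 1385 differed at least 4-fold and 158 at least 64-fold, and among the 3592 lower genes 1024 and 41 did. The lower genes held 58.0% and 60.2% of gene reads in WT replicates 1 and 2, 50.002% in WT replicate 3 and 21.9 to 26.9% in the Cdx2-/- samples. Genes higher in both sets held 5.35 to 8.22% in WT and 23.2 to 28.2% in Cdx2-/-. The share held by each sample's 10 most abundant genes was 11.6 ± 0.70% in WT (SD, n = 3) and 10.3 ± 1.99% in Cdx2-/- (SD, n = 6), a difference within the spread (two-sided exact permutation test, p = 0.333). The bar chart of read shares shows all 9 samples. In whole tissue, fewer cells of a type and less RNA per cell cannot be told apart.

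**Figure D1:**
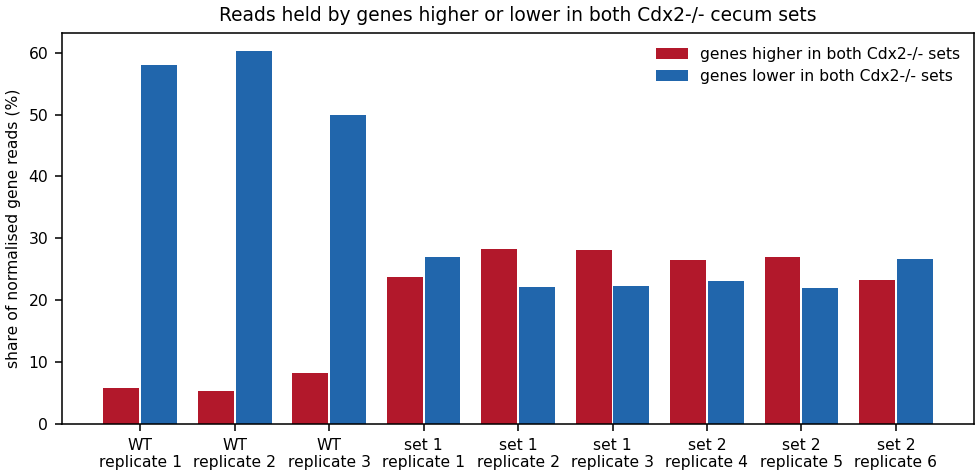
Share of gene reads (percent, vertical axis) held by the 3819 genes higher (red) and the 3592 genes lower (blue) in both Cdx2-/- sets, one pair of bars per sample. The lower genes take 50.002 to 60.2% of reads in the 3 WT samples and 21.9 to 26.9% in the 6 Cdx2-/- samples; these genes were chosen by this contrast, so the gap is a description.

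The targeted gene was lower but present. Cdx2 stood at 623, 663 and 408 CPM in WT, 287, 168 and 165 CPM in set 1 and 148, 130.0 and 349 CPM in set 2. All 6 Cdx2-/- samples lay below all 3 WT samples (log2 fold change -1.44 ± 0.39, adjusted p = 0.0174). Leaving out single samples raised that p above 0.05 in 5 cases, to 0.056 without WT replicate 2, 0.0674 and 0.0692 without set 1 replicates 2 and 3, and 0.0756 and 0.0838 without set 2 replicates 4 and 5. It was also above 0.05 with total-read scaling (0.0753) and with set 1 replicates 2 and 3 counted as 1 sample (0.0684). Over the mean of both sets the adjusted p was 0.00427. Gene-level counts include any transcript from the floxed alleles that keeps part of the gene. Cdx1, the paralog, stood at 332, 304 and 204 CPM in WT, 51.8, 13.1 and 12.3 CPM in set 1 and 11.6, 16.1 and 68.7 CPM in set 2, and fell in both sets (log2 fold change -3.28 ± 0.65, adjusted p = 0.00424). Set 1 replicate 1 and set 2 replicate 6 kept the most Cdx2 and the most Cdx1 of the 6.

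Intestinal transcription factors fell as a list and foregut factors mostly rose. Of 24 intestinal factors tested, 16 fell and none rose (12 fell and 2 rose with total-read scaling), with a median log2 fold change of -1.79 against 0.04 over all genes. Hnf4a, a nuclear receptor that works beside CDX2, stood at 2163, 2147 and 1219 CPM in WT, 397, 365 and 343 CPM in set 1 and 313, 304 and 426 CPM in set 2 (log2 fold change -2.36 ± 0.27, adjusted p = 2.22e-05). The lowest WT sample held 1219 CPM and the highest Cdx2-/- sample 426 CPM. Klf4, a factor of mature surface and goblet cells, fell from 1182 ± 323 to 129 ± 41.9 CPM (log2 fold change -3.21 ± 0.32, adjusted p = 8.32e-06). Vdr, the vitamin D receptor, fell from 639 ± 159.9 to 28.4 ± 16.4 CPM (log2 fold change -4.49 ± 0.63, adjusted p = 0.000233). Among 24 genes on the list of foregut factors, which also holds general secretory and endoderm factors, 13 rose and 1 fell. Xbp1, a factor of secretory cells, rose from 171 ± 7.34 to 470.2 ± 64 CPM, and Creb3l1 rose from 48 ± 10.8 to 228 ± 80.4 CPM. Foxa1, which opens chromatin in endoderm, rose from 54.6 ± 7.98 to 153 ± 29.4 CPM (log2 fold change 1.47 ± 0.15, adjusted p = 5.97e-06), while its relative Foxa2 fell from 15 ± 3.15 to 3.16 ± 1.26 CPM (log2 fold change -2.300 ± 0.37, adjusted p = 0.00223). In WT stomach, measured in the same series, Foxa2 stood at 49.8 to 66.6 CPM, so its direction in Cdx2-/- cecum was away from the stomach level.

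Hox genes, which record position along the body axis, fell in 10 of 31 cases and none rose (2 rose in a fit to the 9 samples alone). Hoxa9 stood at 131, 163 and 88.7 CPM in WT, 6.8, 1.3 and 1.43 CPM in set 1 and 3.82, 4.62 and 5.07 CPM in set 2. The lowest WT sample held 88.7 CPM and the highest Cdx2-/- sample 6.8 CPM (log2 fold change -5.07 ± 0.51, adjusted p = 1.14e-05). Hoxa7, whose promoter window is printed above, fell from 32.2 ± 3.51 to 2.25 ± 1.34 CPM, Hoxa5 fell from 22.4 ± 6.84 to 1.4 ± 0.291 CPM and Hoxa10 fell from 71 ± 25.2 to 4.22 ± 2.96 CPM. These named genes all belong to the HoxA cluster. Mnx1, another homeobox gene, fell from 1.09 ± 0.297 to 0.0244 ± 0.0138 CPM, with at most 3 reads in every Cdx2-/- sample.

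Genes of the absorptive surface lost most of their reads. On a list of 26 cecum and colon surface genes, 16 fell, at a median of -3.77 on the log2 scale, and their summed level ran 32965 to 59899 CPM in WT and 4011 to 13335 CPM in Cdx2-/-. Car1, the carbonic anhydrase that feeds ion exchange in colon surface cells, was the most abundant of the named losses, at 26794, 23554 and 15034 CPM in WT, 1983, 11.8 and 11.9 CPM in set 1 and 193, 719 and 138 CPM in set 2. Replicates 2 and 3 of set 1 were lowest, while replicate 1 of that set held the highest Cdx2-/- value (log2 fold change -5.49 ± 1.43, adjusted p = 0.0339). That p exceeded 0.05 without WT replicate 1 (0.0584) or 2 (0.0556), set 1 replicate 2 (0.0895) or 3 (0.0896), or set 2 replicate 4 (0.0619) or 6 (0.058), and was 0.00324 over the mean of both sets. The larger p was also above 0.05 in the 9 samples alone (0.055) and with set 1 replicates 2 and 3 as 1 sample (0.0892). Muc3, a membrane-bound mucin of the brush border, stood at 8616, 9186 and 4176 CPM in WT, 457, 96.8 and 90.8 CPM in set 1 and 133, 165 and 73 CPM in set 2 (log2 fold change -5.49 ± 0.68, adjusted p = 0.000128). Lypd8, a secreted protein that keeps flagellated bacteria off the colon surface, fell from 20899 ± 9563 to 2648 ± 2083 CPM (log2 fold change -3.04 ± 0.50, adjusted p = 0.00186). Ceacam1, a surface adhesion receptor, fell from 8775 ± 2136 to 1847 ± 896 CPM, and Myo15b fell from 3835 ± 1449 to 218 ± 121 CPM. Ly6g, the 1 member of the list that rose, is known as a neutrophil surface gene and is taken up with the neutrophil genes below.

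Microvillus genes showed the same direction, with 17 of 23 lower and 1 higher (median -2.01). Cdhr2, a cadherin that links microvillus tips, stood at 2910.2, 3298 and 1639 CPM in WT, 343, 137 and 127 CPM in set 1 and 212, 154 and 218 CPM in set 2 (log2 fold change -3.72 ± 0.52, adjusted p = 0.000186). All WT samples stood above all Cdx2-/- samples, of which set 1 replicate 1 was highest. Krt20, the keratin of mature surface cells, fell from 3592 ± 1441 to 969 ± 295 CPM. Krt18, the exception, rose from 447 ± 146 to 1088 ± 257 CPM, and lost its call without set 2 replicate 6 (larger adjusted p = 0.0553). Mep1a, the protease with its promoter printed above, fell from 1006 ± 274 to 24.3 ± 22.6 CPM (log2 fold change -5.37 ± 1.11, adjusted p = 0.00618).

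Ion and nutrient transporters divided between a larger falling and a smaller rising group. Colonocyte ion and water genes fell in 14 of 34 cases and rose in 5. Aqp8, a water channel of surface colonocytes, stood at 4556, 3329 and 881 CPM in WT, 87.4, 0.997 and 1.14 CPM in set 1 and 1.997, 29.8 and 0.245 CPM in set 2. WT replicate 3 was lowest in WT, and set 1 replicate 1 was highest in Cdx2-/-, still far below it (log2 fold change -7.35 ± 1.43, adjusted p = 0.00712). Clca4a, a secreted chloride-channel regulator, fell from 3069.6 ± 1037 to 142 ± 167 CPM (log2 fold change -4.56 ± 0.71, adjusted p = 0.00162). Slc26a3, the chloride-bicarbonate exchanger of the colon, stood at 1975 to 3164 CPM in WT and 1.14 to 36.2 CPM in Cdx2-/-. Slc12a2, the basolateral sodium-potassium-chloride carrier used for secretion, went the other way and rose from 92.4 ± 51.9 to 515 ± 139 CPM (log2 fold change 2.48 ± 0.33, adjusted p = 1.55e-05). Metal and phosphate genes fell in 8 of 21 cases and rose in 2, among them Slc20a1, a phosphate carrier (from 1036 ± 359 to 66 ± 12.7 CPM), Atp2b1, a calcium pump (from 1076 ± 207 to 166 ± 27.2 CPM), and Fth1, the ferritin heavy chain (from 3525 ± 1116 to 944 ± 248 CPM).

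Genes for uptake of sugars and short-chain fatty acids fell in 7 of 17 cases and rose in 1. Slc16a1, the monocarboxylate carrier that takes up butyrate, stood at 1963, 2489 and 1194 CPM in WT, 134, 83.7 and 85.2 CPM in set 1 and 79.96, 74.8 and 95.5 CPM in set 2. Every WT sample stood above every Cdx2-/- sample (log2 fold change -4.36 ± 0.20, adjusted p = 2.37e-09). Slc37a2, a sugar-phosphate carrier, stood at 2369, 2825 and 1914 CPM in WT, 11, 3.29 and 2.54 CPM in set 1 and 3.74, 6.58 and 3.49 CPM in set 2, and was low in all 6 Cdx2-/- samples (log2 fold change -8.86 ± 0.50, adjusted p = 1.95e-08). Slc2a2, the glucose carrier GLUT2 of small-intestinal cells, had no read in any WT sample and 0.552 to 1.48 CPM in Cdx2-/-. Taking 3 reads per WT sample as the limit, that is at least 17.5-fold higher. Lipid absorption genes moved both ways, 6 of 22 up and 5 down, and more fell than rose in several other fits (4 up and 6 down without WT replicate 3). Their summed level ran 2084 to 4086 CPM in WT and 1199 to 1867 CPM in Cdx2-/-. Fabp2, the intestinal fatty acid binding protein, fell from 1542 ± 605 to 78 ± 44.7 CPM. Npc1l1, which takes up cholesterol, rose from 1.31 ± 0.726 to 34 ± 34.3 CPM, and Mttp, which loads lipoproteins, rose from 2.16 ± 0.218 to 22.8 ± 21.6 CPM. Amino acid carriers rose in 7 of 22 cases and fell in 4, while their summed level was lower, at 2180.3 to 3149 CPM in WT and 874 to 1449 CPM in Cdx2-/-. Slc7a11, the cystine carrier, stood at 3.28, 2.47 and 4.07 CPM in WT, 246, 109 and 114 CPM in set 1 and 221, 333 and 171 CPM in set 2. The lowest Cdx2-/- sample held 109 CPM and the highest WT sample 4.07 CPM (log2 fold change 5.89 ± 0.44, adjusted p = 2.43e-08).

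**Figure D2:**
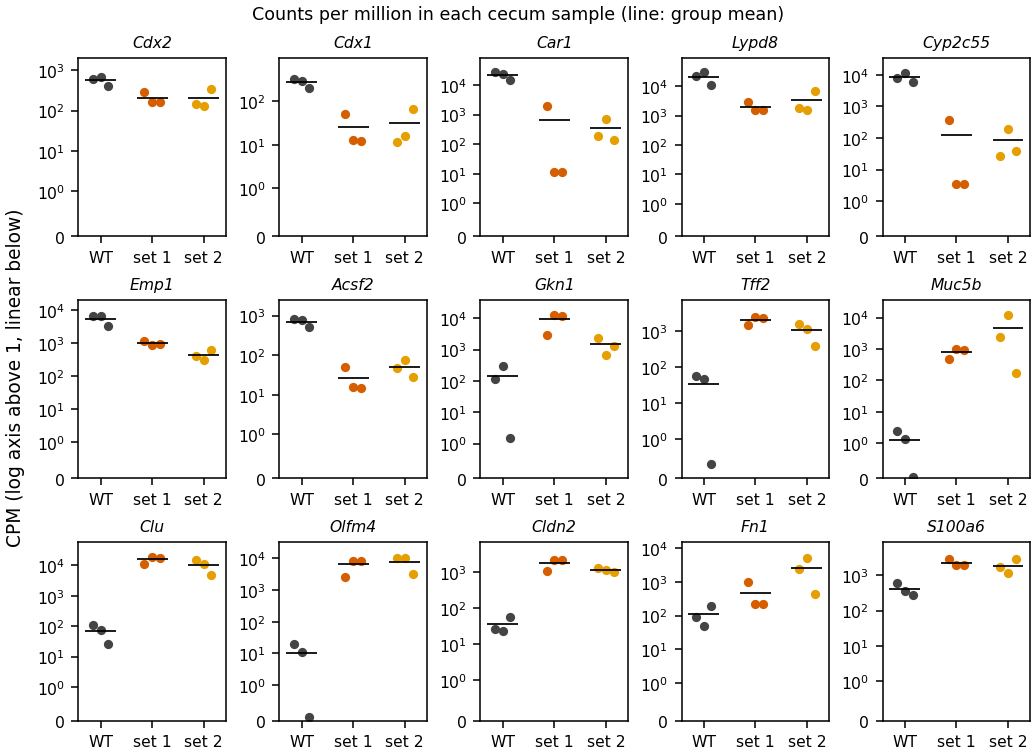
CPM of 15 named genes in each of the 9 samples (vertical axes logarithmic above 1 and linear below), with points for single samples of WT, set 1 and set 2 and a line for each group's mean. Cdx2 falls to between 130.0 and 349 CPM from at least 408 CPM, Car1 and Cyp2c55 fall furthest in set 1 replicates 2 and 3, and Clu, Olfm4, Cldn2 and Muc5b lie above WT in all 6 Cdx2-/- samples.

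Nuclear genes of mitochondrial energy metabolism were lower in most cases. Complex I genes fell in 24 of 37 cases and genes of complexes II to V in 33 of 39, with none higher and medians of -0.85 and -1.02. With samples scaled by total gene reads, 8 and 20 fell and 1 complex I gene rose, with medians of -0.38 and -0.57. Atp5b, the catalytic beta subunit of ATP synthase, stood at 2443, 2299 and 2039 CPM in WT, 1065, 1199 and 1136 CPM in set 1 and 938, 892 and 1400.2 CPM in set 2. No WT sample overlapped the Cdx2-/- range (log2 fold change -1.03 ± 0.13, adjusted p = 4.1e-05). Cox4i1, a subunit of cytochrome c oxidase, fell from 871 ± 274 to 298 ± 87.5 CPM (log2 fold change -1.58 ± 0.20, adjusted p = 0.000203), and Ndufv1, which binds NADH in complex I, fell from 244 ± 38 to 122 ± 17.1 CPM (log2 fold change -1.01 ± 0.13, adjusted p = 7.32e-05). Tricarboxylic acid cycle genes fell in 18 of 20 cases (10 with total-read scaling), including citrate synthase Cs (from 612 ± 99.4 to 271 ± 41.9 CPM). Pdha1, of the pyruvate dehydrogenase that feeds the cycle, was the member that rose (from 68.7 ± 12.7 to 172 ± 44.6 CPM, log2 fold change 1.32 ± 0.20, adjusted p = 0.000131).

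Of 28 fatty acid oxidation and ketone body genes, 24 fell (21 with total-read scaling), at a median of -1.34. Acsf2, an acyl-CoA synthetase, stood at 809.6, 775 and 501 CPM in WT, 50.6, 16.1 and 14.4 CPM in set 1 and 46.3, 77.5 and 28.7 CPM in set 2. The lowest WT sample held 501 CPM and the highest Cdx2-/- sample 77.5 CPM (log2 fold change -4.23 ± 0.40, adjusted p = 1.1e-05). Acsl5, another acyl-CoA synthetase, was called higher (from 125 ± 7.51 to 269 ± 72.6 CPM, log2 fold change 1.09 ± 0.30, adjusted p = 0.0311) but not without WT replicate 1, 2 or 3 or set 2 replicate 6, where the larger p was 0.07, 0.0641, 0.0729 and 0.18. Of 17 glycolysis genes 6 fell (3 without WT replicate 1, and 3 with total-read scaling) and 1 rose. Gpi1, which isomerises glucose phosphate, fell from 1314 ± 521 to 381 ± 95.1 CPM, while Pfkfb3, which makes the activator of phosphofructokinase, rose from 7.04 ± 1.7 to 40.6 ± 5.71 CPM (log2 fold change 2.53 ± 0.44, adjusted p = 0.000224). Cholesterol synthesis genes gave 3 calls of 24, all lower, below the 17.5% of all genes. The 37 mitochondrially encoded genes were listed at 0 reads in every sample and give no value.

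Xenobiotic cytochrome P450 genes fell in 9 of 20 cases and rose in 3, and their summed level ran 7295 to 13580.0 CPM in WT and 434 to 884 CPM in Cdx2-/-. Cyp2c55, a cytochrome P450 of mouse large intestine, stood at 8125, 11133 and 5986 CPM in WT, 373, 3.53 and 3.55 CPM in set 1 and 27.6, 193 and 39.8 CPM in set 2. Replicates 2 and 3 of set 1 were lowest and replicate 1 of set 1 highest among the 6 (log2 fold change -6.33 ± 1.23, adjusted p = 0.00525). Cyp2c68 of the same family rose from 0.633 ± 0.404 to 31 ± 13.7 CPM (log2 fold change 5.55 ± 0.59, adjusted p = 1.15e-06). Cyp1a1, the known target of β-naphthoflavone, stood at no more than 0.0837 CPM in any of the 9 samples. Conjugation enzymes fell in 16 of 34 cases and rose in 9 (11 and 10 with total-read scaling). Their summed levels overlapped, at 4738 to 6361 CPM in WT and 4339.9 to 7106 CPM in Cdx2-/-. Sulfotransferases Sult1a1 (from 607 ± 147 to 21 ± 21.5 CPM) and Sult1d1 (from 881 ± 164 to 97 ± 49.1 CPM) and the glucuronosyltransferase Ugt2b34 (from 1014 ± 209.6 to 258 ± 52.6 CPM) fell. Gsto1, a glutathione transferase, rose from 239.5 ± 44.6 to 1789 ± 318 CPM (log2 fold change 2.89 ± 0.31, adjusted p = 2.77e-06).

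Glutathione and peroxide genes gave 8 higher and 2 lower of 20. Gpx2, the gut glutathione peroxidase, stood at 264, 147 and 170.0 CPM in WT, 1263, 1371 and 1251 CPM in set 1 and 833, 620.2 and 795 CPM in set 2. WT and Cdx2-/- samples did not overlap, and set 1 stood above set 2 (log2 fold change 2.35 ± 0.34, adjusted p = 0.000189). Gclc, which makes the first bond of glutathione, rose from 269.6 ± 40.9 to 689 ± 199.7 CPM, and Prdx1 rose from 356 ± 42.7 to 959.5 ± 246 CPM. Prdx6, a peroxidase placed with the colon surface genes, fell from 5037 ± 1453 to 415 ± 184 CPM (log2 fold change -3.67 ± 0.20, adjusted p = 2.46e-08). Peroxisome biogenesis genes fell in 6 of 15 cases and rose in 1, and with total-read scaling 3 fell and 3 rose.

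Genes of growth and division were higher in Cdx2-/- cecum. DNA replication genes were higher in 18 of 25 cases and mitosis genes in 24 of 27, with no member lower and medians of 1.13 and 1.22. Leaving out single samples, changing the scaling or restricting the fit to the 9 samples gave 16 to 21 and 18 to 27. Mcm3, a subunit of the replicative helicase, stood at 17, 13.6 and 32 CPM in WT, 60.3, 79.7 and 75.1 CPM in set 1 and 57.1, 48 and 66.5 CPM in set 2. WT replicate 3 was the highest WT sample and still below every Cdx2-/- sample (log2 fold change 1.62 ± 0.23, adjusted p = 9.72e-05). Mki67, the proliferation marker, stood at 102, 61.8 and 153 CPM in WT, 197, 267 and 271 CPM in set 1 and 220.0, 228 and 291 CPM in set 2. WT replicate 3 again stood highest in WT (log2 fold change 1.22 ± 0.26, adjusted p = 0.00194). Plk1, a mitotic kinase, rose from 36 ± 12.6 to 149.8 ± 17.6 CPM (log2 fold change 2.05 ± 0.18, adjusted p = 3.71e-07), and Top2a, which untangles chromosomes, rose from 65.5 ± 35.4 to 174 ± 27.4 CPM (log2 fold change 1.41 ± 0.24, adjusted p = 0.000244). Nucleotide, polyamine and one-carbon genes rose in 16 of 25 cases, with Paics, a purine synthesis enzyme, going from 28.1 ± 10.6 to 137 ± 21.8 CPM (log2 fold change 2.29 ± 0.22, adjusted p = 6.75e-07). Cell-cycle regulators were mixed, at 6 higher and 9 lower of 25 (8 and 5 with total-read scaling, 8 and 6 with upper-quartile scaling). Mxd1, a Myc antagonist of differentiated cells, fell from 1276 ± 424 to 203 ± 124 CPM, the retinoblastoma gene Rb1 fell from 115 ± 25 to 36.5 ± 6.43 CPM, and Cdkn1a, a CDK inhibitor, fell from 413 ± 152 to 118 ± 28.3 CPM. Ccnd2, a D-type cyclin, rose from 91.8 ± 17.3 to 381 ± 205 CPM (log2 fold change 2.05 ± 0.37, adjusted p = 0.000433).

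Ribosome biogenesis genes rose in 20 of 30 cases. Npm1, a nucleolar chaperone, stood at 89.2, 89.7 and 128 CPM in WT, 269, 238 and 253 CPM in set 1 and 229, 195 and 229.8 CPM in set 2. The lowest Cdx2-/- sample held 195 CPM and the highest WT sample 128 CPM (log2 fold change 1.199 ± 0.15, adjusted p = 3.43e-05). Nucleolin, Ncl, rose from 186 ± 77.1 to 407 ± 50.4 CPM, and Utp20 was the member that fell (from 102 ± 14.3 to 45.5 ± 12.3 CPM, log2 fold change -1.17 ± 0.17, adjusted p = 0.000798), a call not made with total-read scaling (larger adjusted p = 0.0846). Cytosolic ribosomal protein genes rose in 30 of 78 cases by small amounts (median 0.49), and in 63 of 78 with total-read scaling. Small nucleolar RNAs, which guide ribosomal RNA modification, were called higher in 23 (16.8%, below the 18.6% of all genes) and lower in 2 of 137, although poly(A) libraries catch them poorly. Translation factors gave 6 higher and 2 lower of 27 (22.2% and 7.41%, against 18.6% and 17.5% of all genes), and 21 and 1 with total-read scaling or 14 and 2 with upper-quartile scaling.

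Many genes that mark fetal-like or regenerating epithelium were higher. Of 28 members tested, 20 rose and none fell, with a median of 2.64 and a sum that ran 1923 to 3671 CPM in WT and 13111 to 28703 CPM in Cdx2-/-. Clu, a secreted chaperone known to mark revival stem cells after injury, stood at 111, 74.4 and 25.2 CPM in WT, 11306, 19236 and 18303 CPM in set 1 and 15299, 10803 and 4785 CPM in set 2. Its lowest Cdx2-/- value, 4785 CPM in set 2 replicate 6, stood far above its highest WT value (log2 fold change 7.53 ± 0.64, adjusted p = 9.61e-08). Krt7, a duct-type keratin, rose from 88.4 ± 10.1 to 869.7 ± 351 CPM (log2 fold change 3.22 ± 0.61, adjusted p = 0.00144). S100a6, a calcium-binding protein of regenerating epithelium, rose from 411 ± 156 to 2063 ± 656 CPM (log2 fold change 2.32 ± 0.37, adjusted p = 0.000148). Of 25 crypt base genes tested, 11 were called higher and 4 lower. This list's median log2 fold change was 0.25, so the large gains described next do not stand for all its members. Olfm4, a secreted product of small-intestinal crypt base cells that mouse colon normally lacks, stood at 19.4, 11.5 and 0.104 CPM in WT, 2579, 8171 and 8421 CPM in set 1 and 9967, 10483 and 3156 CPM in set 2. WT replicate 3 had almost none, and the lowest Cdx2-/- sample held 2579 CPM (log2 fold change 9.43 ± 1.65, adjusted p = 0.000154). Cd44, a Wnt-responsive adhesion receptor, rose from 58.3 ± 27.6 to 574 ± 121 CPM (log2 fold change 3.297 ± 0.33, adjusted p = 6.75e-07).

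Signalling pathway genes changed in smaller shares. Wnt genes rose in 8 and fell in 3 of 29. The co-receptors parted: Lrp5 stood at 56.6, 49 and 64.2 CPM in WT, 165, 341 and 299 CPM in set 1 and 231, 222 and 232 CPM in set 2 (log2 fold change 2.13 ± 0.18, adjusted p = 2.6e-07), while Lrp6 stood at 319, 362 and 243 CPM in WT, 109.8, 125 and 126 CPM in set 1 and 136, 161 and 125 CPM in set 2 (log2 fold change -1.24 ± 0.15, adjusted p = 6.42e-05). Every Cdx2-/- sample was above WT for Lrp5 and below WT for Lrp6. Ligands Wnt5a (from 17.1 ± 3.46 to 55.5 ± 10.5 CPM) and Wnt11 (from 0.891 ± 0.239 to 22.8 ± 11.4 CPM) rose. Notch genes rose in 8 of 20 and fell in 2, the first including Notch2 (from 16.1 ± 6.41 to 45.1 ± 11.2 CPM) and the ligand Jag1 (from 18.7 ± 2.24 to 43.8 ± 10.4 CPM). In the Hedgehog and BMP pathways 7 genes rose and 5 fell of 29 (3 fell without set 2 replicate 5). Ihh, the Hedgehog ligand made by mature colon cells, fell from 287 ± 102 to 74.9 ± 13.6 CPM (log2 fold change -1.94 ± 0.23, adjusted p = 2.09e-05). Grem1, a BMP antagonist of the stroma, stood at 3.28, 3.64 and 20.3 CPM in WT, 66.2, 220.4 and 239 CPM in set 1 and 160.2, 249 and 138 CPM in set 2. WT replicate 3 was the highest WT sample, and every Cdx2-/- sample was above it (log2 fold change 4.29 ± 0.76, adjusted p = 0.000221). Of 17 EGF receptor ligands and receptors 5 rose and 3 fell, and their sum ran 1728 to 2454 CPM in WT and 1264 to 1505 CPM in Cdx2-/-. The ligand Btc rose from 3.88 ± 0.487 to 40.9 ± 15.7 CPM (log2 fold change 3.34 ± 0.30, adjusted p = 5.73e-07), while the receptor Erbb3 fell from 721 ± 135 to 277 ± 78.6 CPM (log2 fold change -1.42 ± 0.18, adjusted p = 0.000357).

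**Figure D3:**
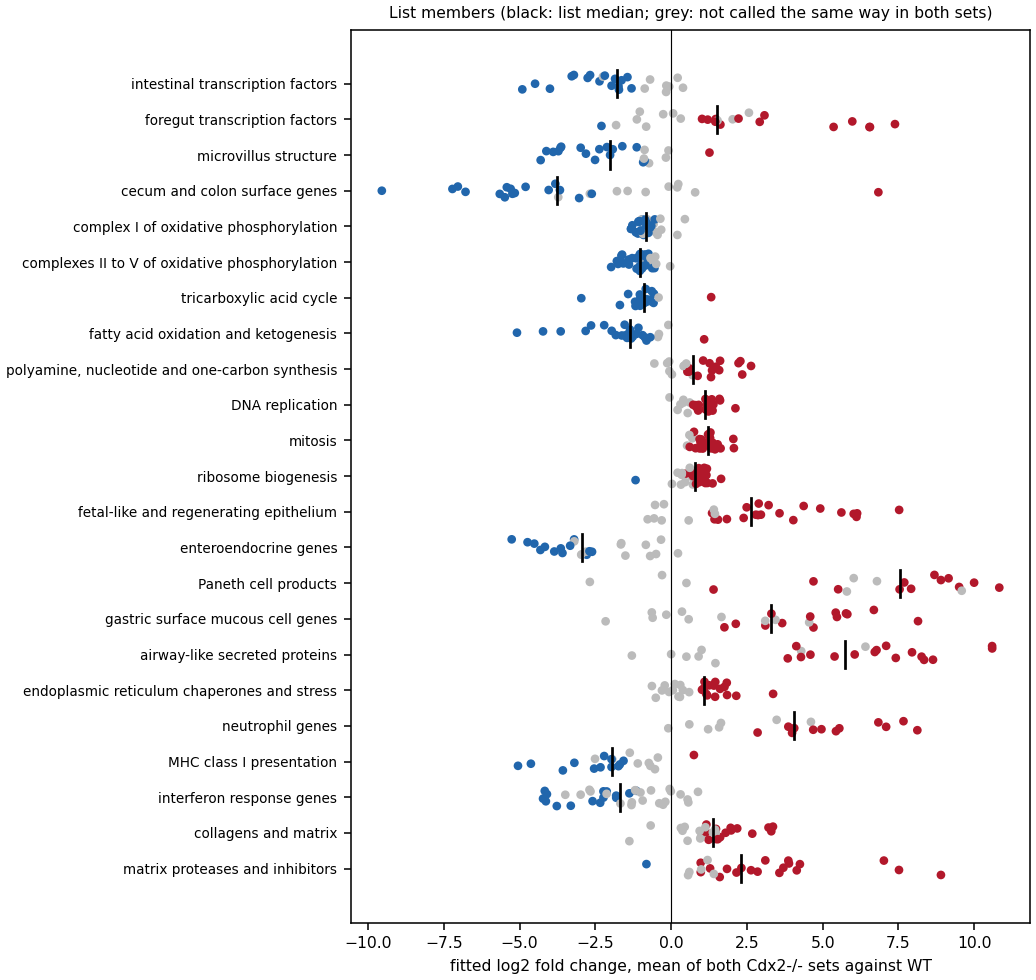
Fitted log2 fold change of each tested member of 23 gene lists (horizontal axis, mean of both Cdx2-/- sets against WT), red where higher in both sets, blue where lower in both and grey otherwise, with a black bar at each list's median. Medians run from -3.77 for cecum and colon surface genes to 7.54 for Paneth cell products; vertical scatter within a row has no meaning.

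Enteroendocrine genes fell, while other secretory lineages of the gut differed in direction. Enteroendocrine genes fell in 13 of 25 cases with none higher (median -2.94), and their sum ran 241 to 449 CPM in WT and 62.6 to 84.4 CPM in Cdx2-/-. Chga, the granule protein chromogranin A, stood at 58.2, 54.6 and 58.6 CPM in WT, 4.54, 0.965 and 0.924 CPM in set 1 and 1.54, 4.56 and 2.51 CPM in set 2. The lowest WT sample held 54.6 CPM and the highest Cdx2-/- sample 4.56 CPM (log2 fold change -4.52 ± 0.56, adjusted p = 9.04e-05). The hormone gene Sct, secretin, fell from 41.5 ± 15.1 to 1.14 ± 1.06 CPM (log2 fold change -5.26 ± 0.76, adjusted p = 0.000583), and Tph1, which makes serotonin in these cells, fell from 10.8 ± 1.08 to 1.07 ± 1.17 CPM (log2 fold change -3.59 ± 0.59, adjusted p = 0.00528). Paneth cell products rose in 12 of 19 cases with none lower, at a median of 7.54, which rests on members near 0 in WT. Defa24, an antimicrobial defensin, stood at 0.238, 0.188 and 0 CPM in WT, 41.4, 134 and 127 CPM in set 1 and 92.7, 27.8 and 383 CPM in set 2. Set 2 replicate 6 was highest and the highest WT sample held 0.238 CPM. Mmp7, the protease that activates mouse defensins, rose from 0.538 ± 0.448 to 244 ± 196 CPM (log2 fold change 8.905 ± 1.13, adjusted p = 5.89e-06). Members of the defensin family share reads with near-identical copies, so single Defa genes are uncertain.

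Of 23 goblet cell genes, 10 rose and 2 fell, with a list median of -0.10, a sign that turns with upper-quartile scaling (median 0.0037), with total-read scaling (0.27) and without WT replicate 3 (0.38). Over the mean of both sets 10 rose and 6 fell. The list's sum ran 7844 to 11459 CPM in WT. It was 9549 CPM in set 2 replicate 6 and 4658 to 5008 CPM in the other Cdx2-/- samples, so the members described here, which rose, do not stand for the sum. Agr2, a chaperone for mucins, rose from 144 ± 116 to 773 ± 143 CPM (log2 fold change 2.42 ± 0.37, adjusted p = 7.46e-05). Creb3l1, a secretory-cell factor given above, is also on this list. Sytl2, a granule docking protein, rose from 29.6 ± 21.7 to 135 ± 29.9 CPM. Tuft cell genes fell in 1 and rose in 5 of 19 cases (3 without WT replicate 2 or without set 2 replicate 4, and 9 with total-read scaling). Avil, an actin-bundling protein of tuft cells, stood at 8.9, 8.35 and 7.1 CPM in WT, 90.7, 158 and 146 CPM in set 1 and 113, 97.8 and 93.8 CPM in set 2. The groups did not overlap (log2 fold change 3.83 ± 0.30, adjusted p = 5.42e-08).

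Stomach surface products appeared in all 6 Cdx2-/- samples. Gastric surface mucous cell genes rose in 13 of 23 cases, none fell, and the sum ran 318 to 1482 CPM in WT and 4603 to 30215 CPM in Cdx2-/-. Gkn1, with its promoter printed above, stood at 114, 305 and 1.56 CPM in WT, 2833, 12422 and 12000.0 CPM in set 1 and 2367, 689 and 1326 CPM in set 2. Set 1 replicates 2 and 3 were highest, and WT replicate 2 had 305 CPM where WT replicate 3 had 1.56 CPM (log2 fold change 4.698 ± 1.23, adjusted p = 0.0248). Its larger p rose to 0.0808 without WT replicate 1, 0.0735 without set 2 replicate 4 and 0.0601 in a fit to the 9 samples alone. WT stomach held 38329 to 49145 CPM. Tff2, a trefoil peptide of gastric mucous cells, stood at 56.4, 46.2 and 0.357 CPM in WT, 1464, 2461 and 2289 CPM in set 1 and 1648, 1128 and 394 CPM in set 2. WT replicate 3 had the least, and the lowest Cdx2-/- sample held 394 CPM (log2 fold change 5.43 ± 1.22, adjusted p = 0.00263), against 1050.4 to 1977 CPM in WT stomach. Gkn3 rose from 7.75 ± 7.14 to 989.5 ± 910.2 CPM (log2 fold change 6.69 ± 1.204, adjusted p = 0.000563), with 97.4 to 379 CPM in WT stomach.

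Gastric gland genes rose in 4 and fell in 1 of 17. Atp4b, of the acid pump of parietal cells, stood at no more than 0.707 CPM in any Cdx2-/- sample, and the pepsinogen gene Pga5 at no more than 0.111 CPM. Gif, gastric intrinsic factor, stood at 0.675 to 8.94 CPM in Cdx2-/- and at 0.132, 3.49 and 0.0149 CPM in WT. Atp4b is the member that fell, and its WT mean comes from WT replicate 2. The list's median was -0.48, and 1.57 without WT replicate 2. The members that rose include Slc26a9, an anion channel of gastric surface cells (from 0.808 ± 0.834 to 15.3 ± 5.28 CPM, log2 fold change 4.26 ± 0.62, adjusted p = 4.63e-05), and Bhlha15, a factor of enzyme-secreting cells (from 1.81 ± 0.907 to 8.24 ± 1.16 CPM).

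Genes on a list of airway-like secreted proteins rose in 16 of 24 tested cases, with none lower. The list also holds gut genes, and its sum ran 13954 to 14483 CPM in WT and 26632 to 75273 CPM in Cdx2-/-. Muc5b, the gel-forming mucin of airways, stood at 2.46, 1.42 and 0.0446 CPM in WT, 478, 1028 and 954 CPM in set 1 and 2367, 11760.0 and 169 CPM in set 2. Values in Cdx2-/- spread from 169 CPM in set 2 replicate 6 to 11760.0 CPM in set 2 replicate 5, and the highest WT sample held 2.46 CPM (log2 fold change 10.596 ± 2.28, adjusted p = 0.00182). WT stomach held 1.13 to 4.59 CPM. Wfdc2, a protease inhibitor, rose from 44.1 ± 18.8 to 861 ± 167 CPM (log2 fold change 4.29 ± 0.63, adjusted p = 3.54e-05). Reg3g, an antibacterial lectin of gut epithelium, rose from 9.06 ± 1.73 to 1059 ± 469 CPM (log2 fold change 6.78 ± 0.95, adjusted p = 2.87e-05). It stood at 1271 to 3397 CPM in Apc+/- ileum of the same series. Bpifb3 and Bpifb4, lipid-binding proteins of airway secretions, had at most 3 reads in each WT sample and stood at 1.71 to 28.7 and 1.53 to 26.7 CPM in Cdx2-/-.

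Protein-folding genes of the secretory route were higher as well. Endoplasmic reticulum chaperone and stress genes were higher in 16 of 28 cases and none was lower. Hspa5, the chaperone BiP, stood at 443, 377 and 369 CPM in WT, 1096, 1418 and 1437 CPM in set 1 and 1079, 1365 and 917 CPM in set 2. The lowest Cdx2-/- sample held 917 CPM and the highest WT sample 443 CPM (log2 fold change 1.62 ± 0.26, adjusted p = 0.000274). Calr rose from 532 ± 53.5 to 1273 ± 76.1 CPM, and Pdia3, which forms disulfide bonds, rose from 429 ± 31.1 to 1142 ± 116 CPM. Glycan enzymes gave 14 higher and 6 lower of 34. Galnt7, which adds sugars to mucins, rose from 146 ± 18.8 to 505 ± 124 CPM (log2 fold change 1.77 ± 0.25, adjusted p = 0.000158). B4galnt2, which makes a terminal sugar of colonic glycans, stood at 824, 953 and 749 CPM in WT, 43.1, 1.71 and 2.07 CPM in set 1 and 21.8, 58.5 and 7.45 CPM in set 2. Replicates 2 and 3 of set 1 were lowest, and set 2 replicate 5 was highest of the 6 (log2 fold change -5.297 ± 0.86, adjusted p = 0.00149). St6galnac1, a sialyltransferase of mucins, had at most 3 reads in each WT sample and 6.997 to 16.4 CPM in Cdx2-/-.

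Junction genes fell more often than they rose, at 9 lower and 3 higher of 23. Cldn2, a leaky claudin of crypt cells and small intestine, stood at 26, 23.3 and 57.2 CPM in WT, 1091, 2199.6 and 2160.3 CPM in set 1 and 1299, 1102 and 983 CPM in set 2. The lowest Cdx2-/- sample held 983 CPM and the highest WT sample 57.2 CPM (log2 fold change 5.33 ± 0.42, adjusted p = 5.8e-08). F11r, a junction adhesion receptor, fell from 519 ± 185 to 238 ± 40.4 CPM (log2 fold change -1.13 ± 0.22, adjusted p = 0.00345). Of 24 squamous genes 5 rose and 2 fell, and the list's sum ran 1712 to 3138 CPM in WT and 968 to 1368 CPM in Cdx2-/-. Krt4, a keratin of stratified lining, rose from 0.158 ± 0.208 to 6.57 ± 3.21 CPM, and Dsp, which anchors desmosomes, fell from 1562 ± 411 to 642 ± 35.8 CPM. Ivl, the involucrin of stratified epithelium, had at most 3 reads in each WT sample and 3.29 to 13 CPM in Cdx2-/-. Simple epithelial keratins and adhesion genes rose in 9 and fell in 7 of 29. Cd24a, a surface glycoprotein of immature epithelium, rose from 254 ± 69.8 to 761 ± 141 CPM (log2 fold change 1.59 ± 0.21, adjusted p = 2.33e-05). Emp1, a membrane protein among the largest losses in CPM, stood at 6671, 6539 and 3425 CPM in WT, 1160.2, 895 and 932 CPM in set 1 and 417, 312 and 612 CPM in set 2. It was lower in set 2 than in set 1, and both sets lay below WT (log2 fold change -3.06 ± 0.26, adjusted p = 6.88e-06).

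Oxidase, chemokine and neutrophil genes rose in Cdx2-/- cecum. Oxidant-producing enzymes rose in 5 of 16 cases and none fell. Duox2, the epithelial oxidase that releases hydrogen peroxide, stood at 495, 249.9 and 279 CPM in WT, 1548, 1492 and 1429.9 CPM in set 1 and 1310.2, 1402 and 1099 CPM in set 2. No WT sample overlapped the Cdx2-/- range (log2 fold change 2.01 ± 0.46, adjusted p = 0.00377). Duoxa1, a maturation factor of the dual oxidase family, rose from 1.16 ± 0.133 to 28 ± 9.84 CPM. Chemokines rose in 14 of 31 cases with none lower. Cxcl5, which draws neutrophils, stood at 0.901, 0.397 and 0.342 CPM in WT, 527, 197 and 202 CPM in set 1 and 214, 491 and 29.5 CPM in set 2. Set 2 replicate 6 was the lowest Cdx2-/- sample and still above every WT sample (log2 fold change 9.02 ± 1.28, adjusted p = 2e-05). Cxcl17, a mucosal chemokine, rose from 0.363 ± 0.36 to 34.3 ± 13 CPM, and Ccl9 rose from 10.9 ± 6.76 to 46.7 ± 20.8 CPM. Neutrophil genes rose in 12 of 19 cases, none fell, and the sum ran 25.5 to 33.8 CPM in WT and 184 to 594 CPM in Cdx2-/-. S100a9, a subunit of calprotectin, stood at 0.344, 0.188 and 0.0446 CPM in WT, 18.4, 30.3 and 34.3 CPM in set 1 and 20.3, 75.6 and 43.1 CPM in set 2. No WT sample held more than 0.344 CPM (log2 fold change 7.67 ± 1.45, adjusted p = 0.000447). Csf3r, the receptor for the neutrophil growth factor, rose from 1.94 ± 0.732 to 33.1 ± 24.7 CPM, and Ly6g, a neutrophil surface gene, rose from 0.0556 ± 0.0608 to 7.33 ± 10.1 CPM. Ltf, lactoferrin of neutrophil granules and mucosal glands, rose from 1.13 ± 0.922 to 158 ± 113 CPM (log2 fold change 7.097 ± 1.36, adjusted p = 0.000561).

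Cytokines and their receptors rose in 17 of 33 cases and fell in 4. Il33, an alarm cytokine of barrier cells, stood at 3.52, 2.95 and 3.54 CPM in WT, 160.4, 274 and 289 CPM in set 1 and 115, 113 and 107 CPM in set 2. All 6 Cdx2-/- samples were above all WT samples (log2 fold change 5.62 ± 0.70, adjusted p = 1.2e-05). Its receptor gene Il1rl1 rose from 8.71 ± 1.65 to 241 ± 50.1 CPM (log2 fold change 4.78 ± 0.33, adjusted p = 1.26e-08), and Il1rn, the interleukin-1 antagonist, rose from 3.49 ± 0.554 to 248 ± 80.7 CPM (log2 fold change 6.14 ± 0.52, adjusted p = 9.94e-08). Il18, an epithelial cytokine, fell from 103 ± 30.1 to 20.1 ± 2.47 CPM (log2 fold change -2.35 ± 0.16, adjusted p = 8.87e-08). Mast cell genes rose in 8 and fell in 1 of 15, and their sum ran 38.3 to 90.4 CPM in WT and 240.1 to 694 CPM in Cdx2-/-. Mcpt2, a mucosal mast cell protease, stood at 2.89, 2.47 and 6.91 CPM in WT, 31.2, 121 and 128 CPM in set 1 and 65, 24.8 and 13 CPM in set 2. The lowest Cdx2-/- sample held 13 CPM (log2 fold change 3.78 ± 0.78, adjusted p = 0.00352). The member that fell, Tph1, is also an enteroendocrine gene. Macrophage and monocyte genes rose in 7 of 25 cases, in 4 without WT replicate 2 and in 16 without WT replicate 3. Cd14, a receptor for bacterial lipopolysaccharide, rose from 21.1 ± 2.41 to 218 ± 49 CPM (log2 fold change 3.37 ± 0.33, adjusted p = 5.53e-07), and Arg1, arginase, rose from 0.193 ± 0.046 to 11.9 ± 4.9 CPM (log2 fold change 5.95 ± 0.88, adjusted p = 2.9e-05). Eosinophil and type 2 genes rose in 3 of 12 cases, among them Prg2, an eosinophil granule protein (from 0.202 ± 0.0715 to 2.65 ± 1.42 CPM), while the list's sum was lower, at 802 to 1795 CPM in WT and 283 to 672 CPM in Cdx2-/-.

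Lymphocyte lists gave few calls. T cell and innate lymphocyte genes fell in 2 of 25 cases and none rose (1 rose and none fell with total-read scaling), and B and plasma cell genes gave 1 higher and 1 lower of 19. The summed T and innate lymphocyte genes ran 85.2 to 105 CPM in WT and 46.1 to 118 CPM in Cdx2-/-. Both shares lie below the 18.6% and 17.5% of all genes. Prdm1, the member of the B and plasma cell list that fell, is also a factor of intestinal epithelium (from 66.3 ± 21.6 to 14.9 ± 7.21 CPM, log2 fold change -2.19 ± 0.29, adjusted p = 0.000296).

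MHC class I genes were lower in 12 of 21 cases and higher in 1, with a median of -1.94. B2m, the light chain of all class I molecules, stood at 1303, 2151 and 1124 CPM in WT, 447, 383 and 400.2 CPM in set 1 and 408, 383 and 320.0 CPM in set 2. WT and Cdx2-/- samples did not overlap (log2 fold change -1.97 ± 0.46, adjusted p = 0.00977). H2-K1, a classical class I heavy chain, fell from 2347 ± 852 to 501 ± 210.3 CPM (log2 fold change -2.33 ± 0.39, adjusted p = 0.00472), although H2 genes share reads with close copies. Class II genes gave 1 call of 13, for Ctss, the cathepsin that trims the invariant chain (from 522 ± 211 to 71.6 ± 19.3 CPM, log2 fold change -2.88 ± 0.25, adjusted p = 2.01e-06). Of 37 genes on the interferon response genes list, 15 fell and none rose (6 fell and 1 rose with total-read scaling). That count rested on single samples, being 7 without WT replicate 1, 6 without WT replicate 2, 6 without set 2 replicate 4 and 4 without set 2 replicate 5. Irf7, the factor that amplifies interferon production, stood at 1411, 1289.9 and 469 CPM in WT, 80.7, 26.5 and 24.7 CPM in set 1 and 62, 45 and 128 CPM in set 2, with no overlap of the groups (log2 fold change -4.17 ± 0.75, adjusted p = 0.00336). Complement and acute phase genes rose in 14 of 27 cases and fell in 1. C3, the central complement protein, stood at 12, 11 and 89.6 CPM in WT, 263, 344 and 326 CPM in set 1 and 458, 619 and 474 CPM in set 2. Every Cdx2-/- sample was above every WT sample (log2 fold change 3.41 ± 0.66, adjusted p = 0.00111). Lrg1, an acute phase glycoprotein, rose from 3.05 ± 1.13 to 564 ± 286 CPM (log2 fold change 7.37 ± 0.48, adjusted p = 8.13e-09).

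Matrix genes and matrix proteases rose. Collagens and matrix genes were higher in 16 of 29 cases, with none lower. Other fits gave 11 to 25 higher, with 25 without WT replicate 3. Col18a1, a basement membrane collagen, stood at 40.3, 26.1 and 49.1 CPM in WT, 281, 442 and 395 CPM in set 1 and 279.8, 404 and 578 CPM in set 2. The groups did not overlap (log2 fold change 3.36 ± 0.29, adjusted p = 1.33e-07). Col4a1, the main basement membrane collagen, rose from 142 ± 37.1 to 406 ± 153 CPM (log2 fold change 1.48 ± 0.23, adjusted p = 0.000747). Fn1, fibronectin, stood at 89.1, 49.5 and 195 CPM in WT, 958, 223 and 216 CPM in set 1 and 2401, 4927 and 449 CPM in set 2 (log2 fold change 3.31 ± 0.67, adjusted p = 0.0162). Set 1 replicates 2 and 3 stood only just above WT replicate 3, and the call was not made without WT replicate 1 (0.0607), WT replicate 2 (0.0772) or set 1 replicate 1 (0.218). Nor was it made in a fit to the 9 samples alone (0.0931). Matrix proteases and inhibitors rose in 19 of 25 cases and fell in 1. Mmp10, a stromelysin whose promoter window is printed above, stood at 1.75, 0.732 and 0.149 CPM in WT, 101, 126 and 133 CPM in set 1 and 75.5, 303 and 209 CPM in set 2. No WT sample overlapped the Cdx2-/- range (log2 fold change 7.52 ± 0.87, adjusted p = 2.6e-06). Mmp13, a collagenase, rose from 9.8 ± 2.31 to 136 ± 91.4 CPM (log2 fold change 3.71 ± 0.71, adjusted p = 0.0014).

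Stromal cell lists were called in smaller shares than the matrix genes. Fibroblast genes rose in 5 of 17 cases (3 without WT replicate 2), and endothelial genes in 5 of 17 (3 without set 2 replicate 5, and 9 with total-read scaling). Pdgfrb, a receptor of mesenchymal cells, rose from 22.7 ± 3.19 to 58.1 ± 14 CPM (log2 fold change 1.35 ± 0.18, adjusted p = 4.69e-05), and Cdh5, the cadherin of endothelium, rose from 13.6 ± 3.49 to 33.3 ± 8.6 CPM (log2 fold change 1.29 ± 0.27, adjusted p = 0.00179). Of the 18 smooth muscle genes none was called either way. Their median was -0.35, but 0.015 with total-read scaling and 0.093 without WT replicate 3. Their sum ran 2542 to 6684 CPM in WT and 2705 to 5274 CPM in Cdx2-/-. Of 21 enteric neuron and glia genes 2 rose, the receptor Ret (from 8.6 ± 5.2 to 54.3 ± 27 CPM) and the glial protein S100b (from 1.04 ± 0.475 to 11.2 ± 4.5 CPM), and 1 fell. The list's median was -0.48 (0.15 without WT replicate 3) and its sum ran 708 to 915 CPM in WT and 317 to 465.98 CPM in Cdx2-/-. Adipocyte genes fell in 3 of 11 cases and rose in 1, with a median of 0.10 (-1.05 in a fit to the 9 samples alone). Fabp4, the member that rose, kept its call in 6 of the 16 other fits. Cidec, a lipid droplet protein, fell from 64.5 ± 40.6 to 6.71 ± 6.77 CPM (log2 fold change -3.28 ± 0.70, adjusted p = 0.00766), and Pparg, which colon epithelium expresses as well, fell from 234 ± 68.9 to 70.2 ± 20.7 CPM (log2 fold change -1.74 ± 0.26, adjusted p = 0.000233). The part of changed cell shares in these results was not tested.

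**Figure D4:**
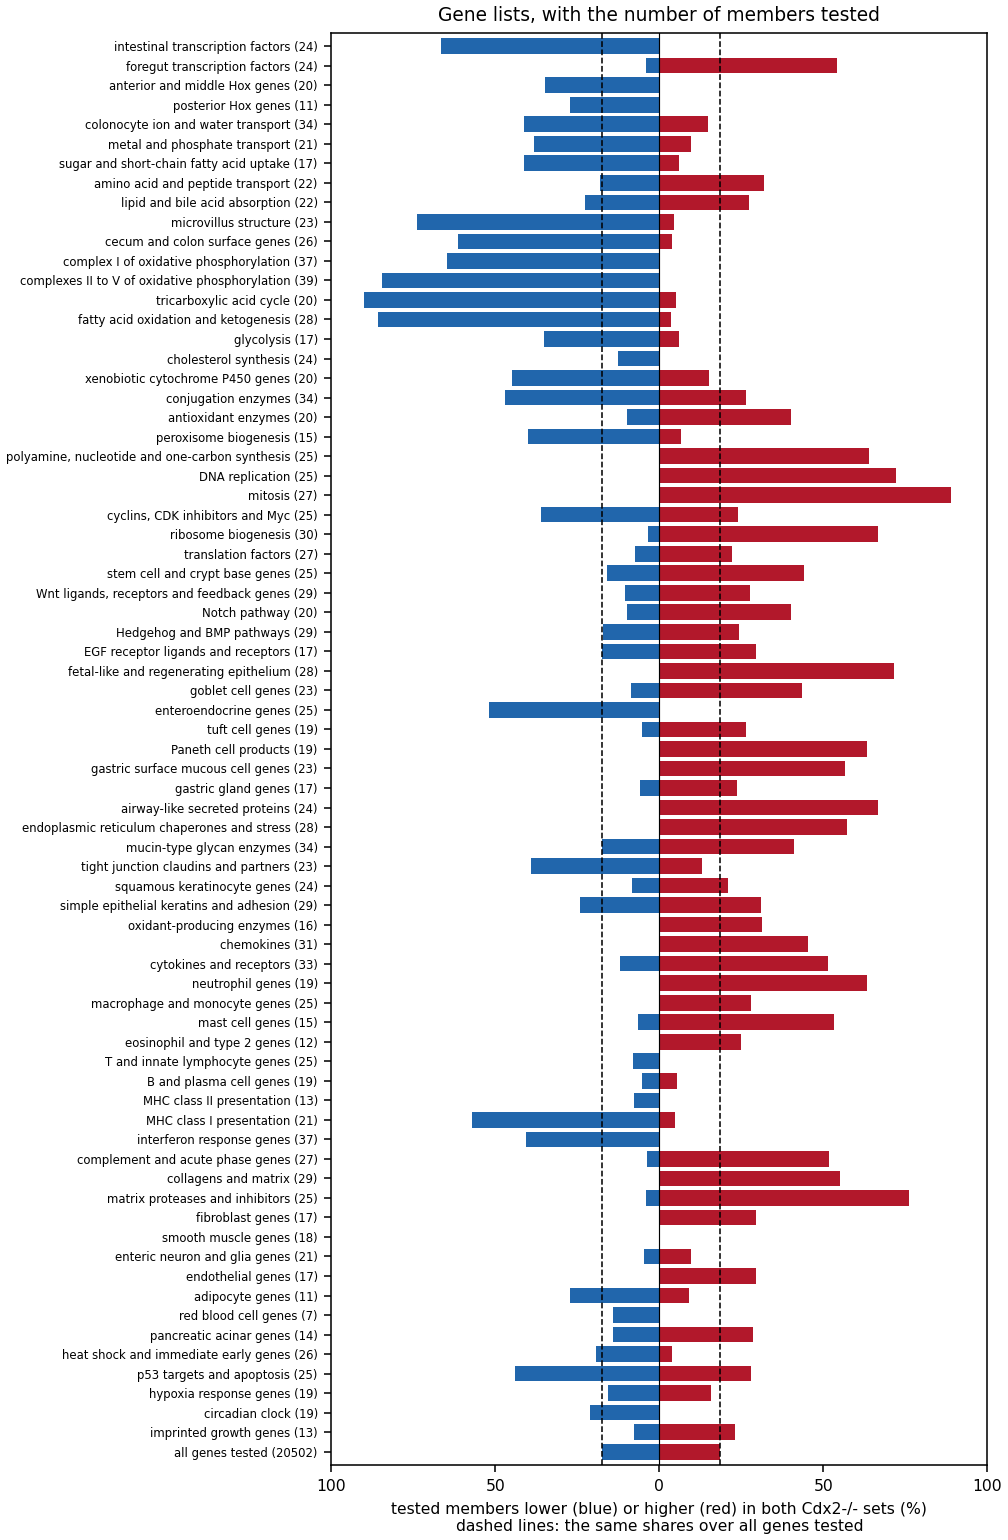
Percentage of the tested genes of each list called higher (right, red) or lower (left, blue) in both Cdx2-/- sets (horizontal axis), with dashed lines at the shares over all 20502 genes, 18.6% higher and 17.5% lower. Mitosis, fetal-like epithelium and matrix protease lists stand far to the right and energy metabolism, microvillus and surface lists far to the left.

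Lists of general cell state were called in both directions or in few cases. Heat shock and immediate early genes fell in 5 of 26 cases and rose in 1 (4 rose and 3 fell with total-read scaling). Jun, an AP-1 subunit, fell from 324 ± 190.2 to 58 ± 16.4 CPM (log2 fold change -2.48 ± 0.34, adjusted p = 0.000108), and Fosl2, another, fell from 440.3 ± 83.8 to 188 ± 18 CPM (log2 fold change -1.23 ± 0.17, adjusted p = 0.000154). p53 target and apoptosis genes gave 7 higher and 11 lower of 25, which turned to 9 and 5 with total-read scaling, and Casp1, the inflammasome protease, fell from 214 ± 39.1 to 56.1 ± 16.9 CPM (log2 fold change -1.93 ± 0.28, adjusted p = 0.000294). Hypoxia genes gave 3 each way of 19. Slc2a1, the glucose carrier GLUT1, fell from 500.2 ± 292 to 122 ± 45.9 CPM, and P4ha2, a collagen hydroxylase, rose from 7.4 ± 1.06 to 39.3 ± 10.02 CPM. Clock genes fell in 4 of 19 cases, including Arntl, the core activator (from 105 ± 18.5 to 32.3 ± 5.82 CPM, log2 fold change -1.705 ± 0.18, adjusted p = 8.82e-06), and Cry1, a repressor (from 90.2 ± 25.9 to 21.6 ± 4.11 CPM, log2 fold change -2.06 ± 0.23, adjusted p = 1.15e-05). The labels give no time of day for the dissections. Of 13 imprinted growth genes 3 rose and 1 fell, with Grb10, a growth factor receptor adaptor, going from 6.5 ± 2.87 to 32.8 ± 8.55 CPM and Plagl1, a zinc finger factor, from 1.89 ± 1.5 to 21.4 ± 6.96 CPM. Pancreatic acinar genes rose in 4 and fell in 2 of 14. The list's sum ran 714 to 1186 CPM in WT. It was 1240 CPM in set 2 replicate 6 and 165 to 385 CPM in the other Cdx2-/- samples. Cela1, an elastase, rose from 30.7 ± 13.3 to 144 ± 47.2 CPM (log2 fold change 2.21 ± 0.48, adjusted p = 0.00289).

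Genes with almost no reads in one group were counted under unequal conditions, since a gain needs few reads in 3 WT samples and a loss in 6 Cdx2-/- samples, so the counts of gains and losses cannot be compared. With at most 3 reads in every WT sample, 270 genes were higher in both sets, and 47 of them reached a mean of 1 CPM in Cdx2-/-. With at most 3 reads in every Cdx2-/- sample, 26 genes were lower, and 5 of them had a mean of 1 CPM or more in WT. Beside Bpifb3, Bpifb4, St6galnac1 and Ivl, the gained genes included Gp2, a receptor of M cells and pancreatic granules, at 0.0222 to 26.8 CPM in Cdx2-/-. Among the lost genes, Tmem211 stood at 4.13, 4.18 and 1.56 CPM in WT. Sycp1, a meiotic chromosome protein, had no read in any Cdx2-/- sample and was at least 20.6-fold lower against a limit of 3 reads per sample.

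The rule by which genes were named also selected 40 genes that are not described above and whose call was lost in at least 1 other fit, so the genes described lean towards calls that held. Anxa2, a membrane-binding annexin among the largest gains in CPM, stood at 1245, 922 and 696 CPM in WT, 3292, 3149.5 and 3022 CPM in set 1 and 1601, 1413 and 2619.9 CPM in set 2 (log2 fold change 1.35 ± 0.31, adjusted p = 0.023), and was not called without WT replicate 2, WT replicate 3 or set 2 replicate 6. Lgals4, a galectin of gut epithelium among the largest losses in CPM, stood at 7824, 7578 and 5082 CPM in WT, 4110.4, 2941 and 2759.5 CPM in set 1 and 1804, 1585 and 4057 CPM in set 2 (log2 fold change -1.26 ± 0.27, adjusted p = 0.0124). It was not called with total-read scaling, in the 9 samples alone, with set 1 replicates 2 and 3 as 1 sample or without set 1 replicate 3. Among the other genes called higher, Slc7a7 lost its call in 13 fits and Derl3 in 6. Duoxa2, Egfr and Smad5 lost theirs in 4 fits, and Ccng1, Gpnmb and Lyz1 in 3. Eif3b and Pnliprp2 lost theirs in 2, and H2-M3, Hes6, Hif1a, Mogat2, S100a4, Slc20a2 and Slc3a2 in 1. Among those called lower, Guca2a lost its call in 10 fits and Ldha in 7. Aldoa, Cldn7, Ctrl and Xcl1 lost theirs in 6 fits, Oasl2 and Sucnr1 in 5 and Lck in 3. Eif6, Epcam, Hoxa13 and Oas3 lost theirs in 2, and Atf3, Cat, Chgb, Hsd3b1, Maml1, Mcl1 and Pex5 in 1.

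Genes were also grouped by the start of their symbols and by annotated type. Serpin protease inhibitors rose in 19 of 34 cases and Mmp proteases in 13 of 19, with 0 and 1 lower. Mcm and Gins genes, which form the replicative helicase, rose in 11 of 13 cases. Collagens rose in 20 of 43, keratins in 11 of 30, S100 proteins in 9 of 16 and tumour necrosis factor family genes in 12 of 31. Galnt transferases, which start mucin-type sugar chains, rose in 7 of 17, and Sox factors in 5 of 15. Ugt glucuronosyltransferases fell in 5 of 12 and Sult sulfotransferases in 4 of 9, with 1 higher in each, while Gst glutathione transferases gave 7 higher and 4 lower of 21. Histone genes fell in 6 of 27, although poly(A) selection catches replication histones poorly. Slc solute carriers gave 71 higher and 87 lower of 329, which turned to 94 and 73 with total-read scaling, and Rab GTPases of vesicle traffic gave 8 and 19 of 69, turning to 14 and 10. Zinc finger (Zfp) genes gave 35 higher and 28 lower of 366, below the shares of all genes. Of 16357 protein-coding genes 3332 were higher and 3209 lower. Immunoglobulin variable segments were higher in 11 and lower in 0 of 183. On chromosome X, 159 genes were higher and 85 lower of 707, a larger share higher and a smaller share lower than over all genes. Each was called in set 2, male like WT, as well as in set 1, which is female. The part of sex in these counts was not tested.

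**Figure D5:**
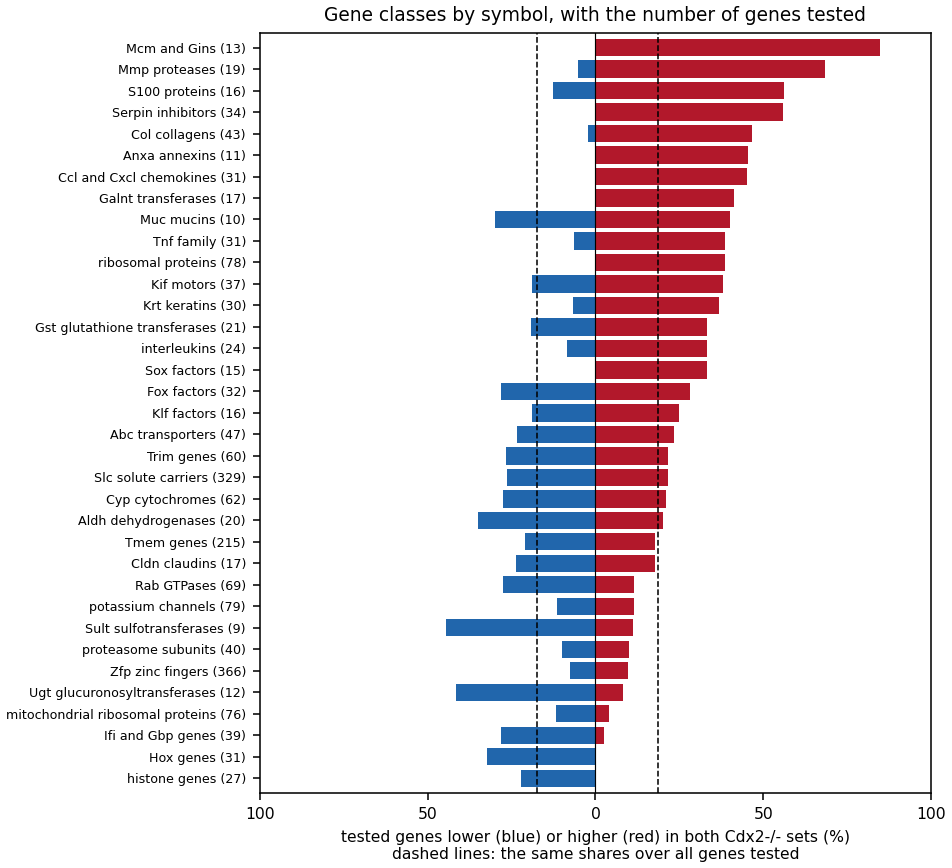
Percentage of tested genes of each symbol family called higher (right, red) or lower (left, blue) in both Cdx2-/- sets, with dashed lines at the shares over all tested genes, 18.6% and 17.5%. Mcm and Gins genes and Mmp proteases lie furthest to the right of the families named in the text, and Zfp genes lie inside both lines.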

How the data were processed

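RNA from dissected mouse gut was sequenced in 24 samples, of which 9 enter this comparison. Total RNA was taken with Trizol and libraries made with a TruSeq mRNA kit, which does not mark strand, per the labels' protocols. The authors deposited raw read counts per Ensembl gene. The submitters' processing notes name CASAVA, TopHat2 2.0.11, HTSeq 0.5.3p3 and GRCm38, and the sources used here do not give the counting options. Entries that name no gene were left out of library sizes: reads in no gene (6.90 to 10.4%), ambiguous reads (2.33 to 2.60%) and reads with several alignments (18.5 to 28.1%), as percentages of all reads listed in a sample's file. Overlapping and near-identical genes can exchange reads.

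Counts were fitted with edgeR 4.0.16 (R 4.3.3; filterByExpr, TMM factors, quasi-likelihood F test, Benjamini-Hochberg adjustment over 20502 genes) on all 24 samples in 8 groups, so that all groups share 1 estimate of the spread. CPM use TMM-scaled library sizes. Genes were kept at an adjusted p under 0.05 in each Cdx2-/- set with the same sign. Alternatives were DESeq2 1.42.0, other scalings, no filter, the 9 samples alone, single samples left out and a larger fold. Recounting the lists under each alternative was chosen after seeing the data. A planned test of the mitochondrially encoded share was not run, since those genes are listed at 0.

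Members and the 73 gene lists were chosen with earlier results of these data known. Named genes are Cdx2, Cdx1, the 10 largest gains and 10 largest losses in CPM among kept genes of known name whose groups do not overlap, up to 3 such members per list in its main direction and 1 in the other, and up to 6 each way with at most 3 reads in every sample of a group. Tissue check genes (Cdh17, Vil1, Slc26a3, Xist, Ddx3y, Cyp1a1, Gkn2, Atp4b, Gif, Pga5) stand outside this rule. Promoters come from RefSeq (GRCm38.p6), where 151 named genes have a single window. Of the 249 genes this rule selects, 168 are described as examples, a choice made after their values were seen. Of the other 81, 40 lost their call in another fit, most of which are named in the report, and the rest are not reported here.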

Additional observations from a re-analysis of the deposited data

Results flagged for a closer look

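Among the 6 Cdx2-/- samples, 12 named genes had 1 sample far from the other 5 on the log2 CPM scale, by the gap to its nearest neighbour against the whole range (Dixon's critical value 0.625). Chance marks about 1 in 20 groups, and 249 named genes were looked at, so chance alone would mark about as many as were found. Set 1 replicate 1 was high for Clca4a (479.6 CPM), Cdkn1c (5.51 CPM) and Mt4 (0.0326 CPM, almost no reads) and low for Sytl2 (75.9 CPM). Set 2 replicate 5 stood apart for Ncl (310.0 CPM), Galnt1 (163.8 CPM), Cela1 (59.7 CPM) and Egr2 (3.15 CPM). Set 2 replicate 6 stood apart for Cxcl5 (29.5 CPM), Cxcl17 (12.8 CPM), Snai2 (8.14 CPM) and Fabp4 (146.4 CPM).

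For 8 named genes the response differed between the 2 Cdx2-/- sets in a test of set 2 against set 1 in the same edgeR fit. On the log2 scale, set 2 minus set 1 was 2.48 for Fn1, 1.71 for Sult1a1, 0.68 for Erbb3 and 0.67 for Fut8. It was -1.42 for Lrg1, -1.16 for Emp1, -0.90 for Prdx6 and -0.64 for Prdx1. Over all genes, 2148 of 20502 (10.5%) differed between the sets, which also differ in the sex of the mice, and the part of sex in this was not tested.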

How the results depend on the processing

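The counts of genes higher (3819) and lower (3592) in both sets moved most with the scaling: with total gene reads only they were 6249 and 2025. A required log2 fold change of at least 1 in each set left 2443 higher, 2076 lower and 6332 called over the mean of both sets. Leaving out each sample in turn gave 2984 to 4343 higher, 2906 to 3964 lower, 8905 to 11338 called over the mean, 8071 to 10254 called in set 1 and 8468 to 11149 called in set 2. A group with a sample left out was taken to vary like the other groups. The difference in the 10-gene read share ranged from -1.99 to -0.76 percentage points. DESeq2, other size factors, no filter, the 9 samples alone and set 1 replicates 2 and 3 as 1 sample kept each count within 1.5 times its value, and 0 of the genes kept here were kept with the opposite sign in any of the 16 other fits. Of 249 named genes, 51 were not called in both sets in at least 1 of these fits and 0 reversed. Of those 51, 11 were among the 168 genes described with values and 40 among the other 81. The 11 include Fabp4, Cdkn1c, Mt4 and Egr2, whose calls held in 6, 11, 13 and 14 of the 16 fits. With the replicate block, 9637 genes were called in set 1, against 9632 without it in the same samples. Same-numbered WT and set 1 samples deviated with correlations of 0.131, -0.160 and 0.216, so the numbers were not taken to pair samples, and not every sample correlated best with its own number. Set 2 shares no numbers with WT. The mitochondrially encoded share was not run.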

Other observations

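Mitochondrially encoded genes are listed at 0 reads, but nuclear copies of them held many reads, which was looked for after values were seen. Gm13340 on chromosome 2 is 97.6% identical to mt-Co1 over 1545 bases, so its reads cannot be told apart from those of mt-Co1 with certainty. It stood at 44585, 50932 and 34642 CPM in WT, 21727, 11189 and 12107 CPM in set 1 and 14004, 11011 and 12581 CPM in set 2 (log2 fold change -1.66 ± 0.20), and was called lower in both sets. Gm13341, 95.9% identical to mt-Co2 over 684 bases, was also lower (-1.29 ± 0.19). Gm13339, a copy of mt-Nd2 (96.7% over 510 bases), and Gm10222, a copy of mt-Nd4l (100% over 294 bases), did not pass the test (-0.29 ± 0.20 and -0.20 ± 0.16). The 2 copies that fell did so in the direction of the nuclear genes of oxidative phosphorylation, and the 2 others give no such call.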
